A study of Homo sapiens with 24 samples.

Results

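The regions described here carried an exon label and no promoter label. They were the lines of the 2 direct tables, shANCO1 against shCTRL in the 10A line and in the DCIS line, that were narrower than 3000 bp, had at least 1 gene marked as overlapped in an exon and had no gene marked as overlapped at its promoter. There were 1476 of them among 50284 regions in 10A and 1098 among 44790 in DCIS, together 2574 of 95074. The choice used the position, the width and the gene labels of a region and none of its measured values.

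The measurement was ChIP-seq for histone H3 acetylated on lysine 27 (H3K27ac). 10A (MCF10A) is an immortalized, non-tumorigenic human mammary epithelial line, used in the study as a pre-malignant stage, and DCIS (MCFDCIS) is a line of that lineage that models triple-negative ductal carcinoma in situ. Lentivirus carried a hairpin against ANCO1 (shANCO1) or a control hairpin (shCTRL, named shGFP in the tables) into each line, infected cells were selected with puromycin, and each of the 4 resulting populations gave 3 H3K27ac libraries and 3 libraries of input, the sonicated chromatin before immunoprecipitation. The study's figures name a single hairpin line, shANCO1 #3, for the H3K27ac analysis, so other hairpins were not compared here. ANCO1 is the protein of the gene ANKRD11, and a ChIP-seq table does not measure its mRNA, so the knockdown was not checked here.

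H3K27ac is deposited by the acetyltransferases p300 and CBP at active promoters and enhancers, and histone deacetylases such as HDAC3 remove it. An enhancer can lie anywhere relative to the gene it acts on, including across exons of that gene or of a neighbour, where the same bases also serve as coding or untranslated sequence. ANCO1 is known as a corepressor that binds nuclear receptor coactivators and recruits histone deacetylases. The comparison asks where acetylation differs once ANCO1 is reduced.

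Each region had 1 value for the whole comparison of 3 libraries with 3. The log2 fold change was the authors' value for a representative window of the region, with shANCO1 over shCTRL, and the false discovery rate (FDR) was theirs too. Regions were called up or down at FDR under 0.05, in the direction listed in the table. No value per library was in the tables, so the spread between replicates and the read depth behind a region were unknown and the authors' FDR is the error given with each value. Nothing in the sources used here says that the 3 libraries of a group came from separate cultures.

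The exon label was generous. An exon had only to touch the region, and GENCODE exons made up a median of 17.3% of the bases of a 10A member (quartiles 5.91% and 74.3%) and 22.4% in DCIS (6.02% and 84.8%). At least 50% of the bases lay in exons in 455 of the 10A members and 373 of the DCIS members, and every base did in 297 and 248. By contrast 183 members in 10A and 147 in DCIS held no exon of a GENCODE basic transcript at all, so the gene models behind the labels differed from GENCODE there. Coding exon was present in 675 of the 10A members (45.7%) and 474 of the DCIS members (43.2%), but it covered only 5.78% and 5.53% of all their bases.

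Few lay near a start site. A protein-coding transcript start was within 1 kb of 5 members in 10A and of 2 in DCIS, and the median distance to the nearest was 32.6 kb and 33.3 kb. Many members sat late in their genes. In 10A the gene could be placed for 1378 members. Of these, 549 had their midpoint in the last 20% of the gene, 85 in the first 20% and 562 between. Beyond the annotated end lay 156, and 26 lay before the start. In DCIS, of 1023 members, 421 lay in the last 20%, 64 in the first 20% and 403 between. Another 113 lay beyond the end and 22 before the start. Other kinds of region were not counted this way here. A last exon was touched by 474 of the 10A members (32.1%) and 354 of the DCIS members (32.2%). Promoter labels remove the starts of genes from this set by its definition.

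The regions with the largest gains show how little of a member the exon could be. For 5 of them the coding exon that lies inside the region is given in capitals with 15 intron bases on each side in lower case, read 5′ to 3′ along the gene from the GRCh38 assembly (hg38). They are the CHD6 exon at chr20:41437259-41437349 on the minus strand and the YIPF4 exon at chr2:32290468-32290651 on the plus strand from 10A, and from DCIS the exons of AIG1 at chr6:143333267-143333460 (plus), SPRED2 at chr2:65316719-65316898 (minus) and SLIT3 at chr5:168712268-168712369 (minus).
CHD6 exon: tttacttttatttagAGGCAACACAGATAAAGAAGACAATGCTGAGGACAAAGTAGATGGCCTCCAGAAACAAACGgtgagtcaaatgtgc
YIPF4 exon: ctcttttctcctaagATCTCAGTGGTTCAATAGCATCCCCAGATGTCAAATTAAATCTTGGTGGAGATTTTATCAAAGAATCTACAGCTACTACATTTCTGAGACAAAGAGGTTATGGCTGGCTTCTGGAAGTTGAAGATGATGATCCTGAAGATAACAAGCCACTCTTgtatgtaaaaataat
AIG1 exon: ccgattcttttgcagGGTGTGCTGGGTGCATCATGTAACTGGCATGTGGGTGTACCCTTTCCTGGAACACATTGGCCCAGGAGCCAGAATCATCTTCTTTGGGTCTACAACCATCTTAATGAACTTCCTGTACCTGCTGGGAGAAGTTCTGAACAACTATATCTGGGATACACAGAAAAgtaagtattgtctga
SPRED2 exon: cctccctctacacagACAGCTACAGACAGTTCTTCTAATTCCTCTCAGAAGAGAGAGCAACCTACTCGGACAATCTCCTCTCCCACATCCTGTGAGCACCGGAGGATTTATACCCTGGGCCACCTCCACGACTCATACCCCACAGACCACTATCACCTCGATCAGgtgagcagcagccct
SLIT3 exon: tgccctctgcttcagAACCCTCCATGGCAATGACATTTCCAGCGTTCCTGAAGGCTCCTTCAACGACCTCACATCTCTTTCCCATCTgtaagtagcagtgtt
These exons took 3.39%, 5.92%, 9.11%, 12.5% and 6% of the region in the order printed. They were exon 27 of 37 in CHD6, 2 of 6 in YIPF4, 5 of 6 in AIG1, 5 of 6 in SPRED2 and 24 of 36 in SLIT3 in the canonical GENCODE transcript.

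ZFYVE9 was the opposite case, a gain in 10A that lay wholly inside coding sequence. The middle of that region, 180 bases at chr1:52238411-52238590 on the plus strand, was all coding and is printed in capitals for that reason.
ZFYVE9 coding exon: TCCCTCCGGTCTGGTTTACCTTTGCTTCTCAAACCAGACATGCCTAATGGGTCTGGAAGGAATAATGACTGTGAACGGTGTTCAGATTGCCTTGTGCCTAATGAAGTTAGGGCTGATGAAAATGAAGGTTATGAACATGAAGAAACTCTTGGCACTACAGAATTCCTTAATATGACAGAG

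A motif for the AP-1 family, the dimers of FOS and JUN proteins, was looked for on both strands as TGACTCA or TGAGTCA, which are each other's reverse complement. The next lines show 67 bases of the plus strand around a match, with the match in capitals. They cover 3 regions that were up in both lines (UBOX5, MINK1 and MAPK6-DT), 2 of the largest gains in 10A (NRP2 and CHD6) and 2 in DCIS (AIG1 and CDH13). The places are chr20:3123076-3123142, chr17:4859277-4859343, chr15:52011083-52011149, chr2:205701009-205701075, chr20:41437236-41437302, chr6:143333916-143333982 and chr16:82638566-82638632.
UBOX5: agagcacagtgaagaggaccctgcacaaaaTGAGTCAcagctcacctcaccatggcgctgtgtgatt
MINK1: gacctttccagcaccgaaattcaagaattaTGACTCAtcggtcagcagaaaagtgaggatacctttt
MAPK6-DT: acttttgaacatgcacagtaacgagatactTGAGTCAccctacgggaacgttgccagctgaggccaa
NRP2: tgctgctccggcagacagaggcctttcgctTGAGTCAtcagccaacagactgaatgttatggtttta
CHD6: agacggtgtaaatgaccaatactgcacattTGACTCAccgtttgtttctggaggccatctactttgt
AIG1: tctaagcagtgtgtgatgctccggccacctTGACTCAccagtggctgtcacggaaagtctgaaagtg
CDH13: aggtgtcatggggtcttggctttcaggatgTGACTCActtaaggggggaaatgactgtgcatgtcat
The CHD6 match is the start of an intron. On the strand of the gene it reads TGAGTCA directly after the first G of the intron that follows the exon printed above. Introns usually begin with GT and often with GTGAGT, so the motif and the splice donor can use the same bases. This was so for 9 of 771 matches inside 10A members and for 8 of 453 inside DCIS members.

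At exonic regions gains of H3K27ac outnumbered losses in both lines. In 10A, 626 of 1476 were up (42.4%) and 3 were down (0.203%), beside 43.6% up and 0.225% down over all regions of the table. In DCIS, 391 of 1098 were up (35.6%) and 71 were down (6.47%), beside 23.6% and 4.86% over all regions. The whole table also holds regions of 3000 bp or more, and without them 39.1% of regions were up in 10A and 23.0% in DCIS. No test set these shares against each other, because regions are not replicates. The log2 fold change had a median of 0.79 over the members and 0.76 over all regions in 10A, and of 0.90 over the members and 0.52 over all regions in DCIS.

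**Figure D1:**
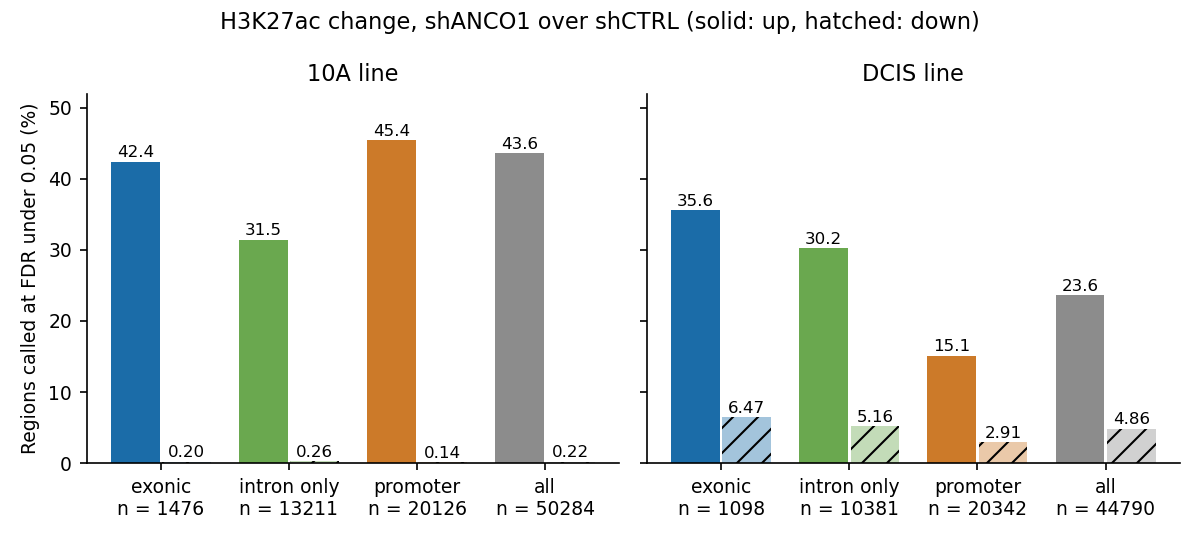
The bars give the percent of regions up (solid) and down (hatched) at FDR under 0.05 in each line, for exonic members, intron-only and promoter-labelled regions under 3000 bp, and all regions. In 10A exonic regions (42.4% up) stood near promoter regions (45.4%), and in DCIS (35.6% up) they stood above intron-only (30.2%) and promoter regions (15.1%).

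The lines ordered the kinds of region differently. In 10A, promoter-labelled regions under 3000 bp were up in 45.4% of 20126 cases, exonic ones in 42.4% and intron-only ones in 31.5% of 13211. In DCIS the promoter-labelled regions were up in only 15.1% of 20342 cases, the intron-only ones in 30.2% of 10381 and the exonic ones in 35.6%. Median log2 fold changes in DCIS stood at 0.30 for promoter-labelled, 0.74 for intron-only and 0.90 for exonic regions, with 0.76, 0.68 and 0.79 as the 10A values. Losses in DCIS made up 6.47% of exonic, 5.16% of intron-only and 2.91% of promoter-labelled regions.

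Width moved with the calls. Among 10A members the share up was 24.5% of 323 at 200 to 400 bp, 29.0% of 366 at 500 to 900 bp, 51.2% of 492 at 1000 to 1900 bp and 64.1% of 295 at 2000 to 2900 bp. In DCIS it was 26.5% of 302, 36.9% of 260, 38.7% of 328 and 42.3% of 208. Exonic members had a median width of 1000 bp in 10A and 900 bp in DCIS, and intron-only regions 600 bp and 500 bp. At 2000 to 2900 bp the gap between exonic and intron-only regions in 10A was 64.1% against 61.7%, and in DCIS it was 42.3% against 35.0%. At 200 to 400 bp it was 24.5% against 17.3% in 10A, and in DCIS the order was reversed, 26.5% against 27.2%. A wider region holds more tested windows, and what part of these shares comes from that was not tested.

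**Figure D2:**
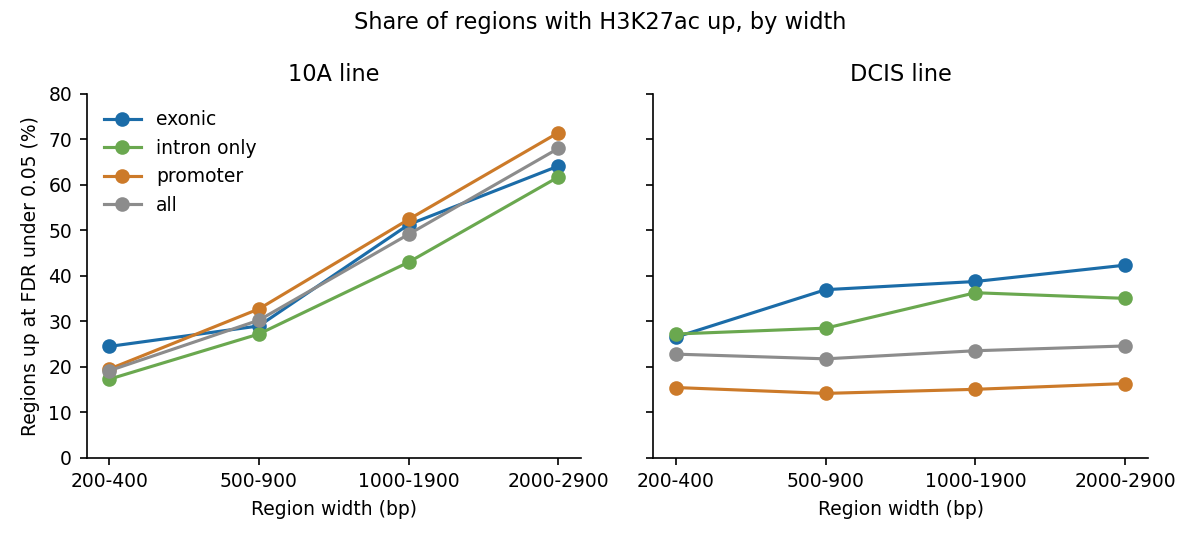
The points give the percent of regions up at FDR under 0.05 (y axis) in 4 classes of width in bp (x axis), for exonic members and other kinds of region in each line. The share of exonic members up went from 24.5% to 64.1% across the width classes in 10A and from 26.5% to 42.3% in DCIS.

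The width limit itself made no visible edge. Exonic regions of 2700 to 2900 bp, just inside it, numbered 80 in 10A, with 53 up, none down and a median log2 fold change of 0.86. Those of 3000 to 3300 bp, just outside, also numbered 80, with 55 up, none down and a median of 0.94. In DCIS the values were 23 up and 3 down of 52 with a median of 1.11 inside the limit, and 27 up and 6 down of 64 with a median of 1.02 outside it.

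The size of the changes differed between the lines. In 10A the log2 fold change was above 0 at 1352 of 1476 members (91.6%), and over all regions the share was 91.8%. Members that were not called still had a median of 0.54 in that line. In 10A, 431 of the 626 gains were 1 or more in log2 fold change, but only 22 exceeded the median of all regions of that line by 1 or more, so the place of 0 decides how many gains count as large. In DCIS the share above 0 was 75.3%, and 284 of 391 gains lay at least 1 unit above that line's median. The gains had a median of 1.12 in 10A with a highest value of 2.74, and a median of 1.83 in DCIS with a highest value of 4.48. A log2 fold change of 3 or more occurred at 33 gains in DCIS and at 0 in 10A.

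**Figure D3:**
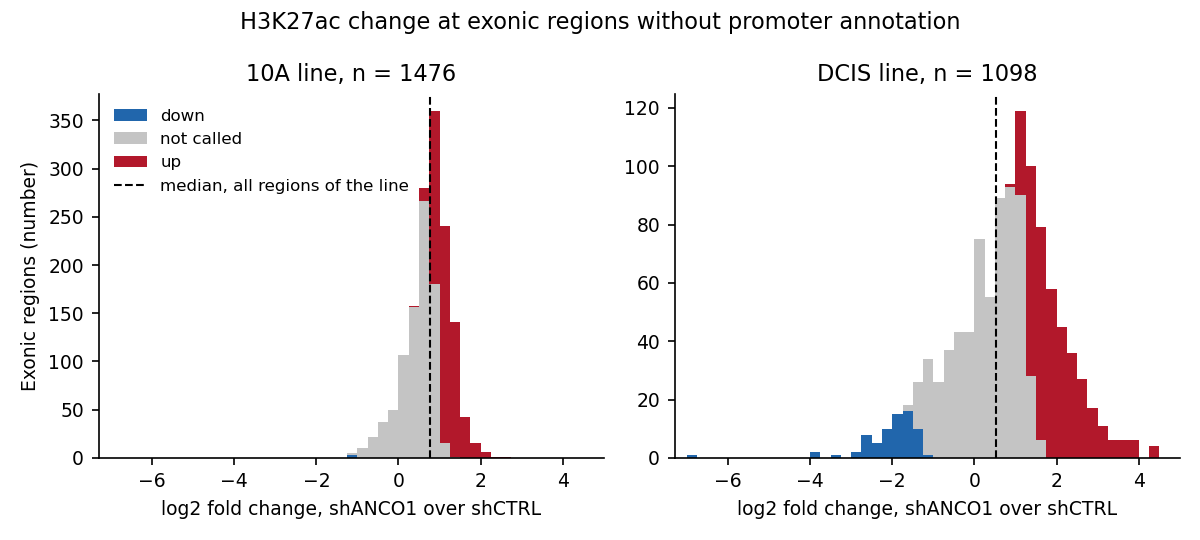
The bars count exonic members (y axis) by log2 fold change of shANCO1 over shCTRL (x axis), with regions up in red, down in blue and not called in grey. The dashed line marks the median of all regions, 0.76 in 10A and 0.52 in DCIS. The 10A members form a narrow peak to the right of 0, and the DCIS members spread from -6.99 to 4.48.

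Gains with every window up were more frequent in DCIS than in 10A. All windows tested in the region were counted up in 206 of 391 gains (52.7%) in DCIS and in 138 of 626 (22.0%) in 10A, and the median share of windows up was 100% and 66.7%. Gains in DCIS were also narrower, with a median width of 1100 bp against 1500 bp in 10A. At least 5 windows were tested in 278 of the 391 gains in DCIS and in 514 of the 626 in 10A. The part of width and window number in this was not tested. Regions with fewer than 5 windows numbered 440 in 10A and 404 in DCIS. They are left out of the largest changes and of the leading pairs named below, and are kept in the gene lists and in the genes with several members.

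The largest gain in 10A was at TNFSF8, which encodes the ligand of a lymphocyte receptor of the TNF family, at chr9:114893801-114895700, with a log2 fold change of 2.74 (FDR 7.56e-09) and 14 of 14 windows up. ZFYVE9, whose protein brings SMAD factors to the TGF-beta receptor, gained 2.33 (FDR 1.70e-07) at chr1:52237901-52239100, with 9 of 9 windows up. The region in NRP2, a co-receptor for semaphorins and VEGF, gained 2.08 (FDR 4.21e-05) and held no GENCODE exon. CHD6, a chromatin remodeller, gained 2.08 as well (FDR 2.21e-07), with 14 of 14 windows up.

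Each of these 4 sites overlapped a region enriched over input in shANCO1, and none overlapped one in shCTRL. The overlapping regions had log2 fold changes over input of 2.68 at TNFSF8, 2.64 at ZFYVE9, 4.19 at NRP2 and 4.52 at CHD6. Such a value belongs to a representative window of the overlapping region, which need not lie inside the member. The input tables use the same H3K27ac libraries as the direct table, so they are a second view of the same chromatin and not a repeat. YIPF4, a membrane protein of the Golgi, gained 2.06 (FDR 0.000267). It was the exception among the 8 in overlapping an enriched region in both groups, with 4.33 in shANCO1 and 4.57 in shCTRL. The others were SRGAP3, a GTPase activating protein, labelled together with the noncoding gene THUMPD3-AS1 (2.01), SLC26A8, an anion transporter (1.94), and CSGALNACT2, which starts chondroitin sulfate chains (1.92).

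There were 3 losses in 10A. ACACB, the mitochondrial acetyl-CoA carboxylase, had -1.21 (FDR 0.00879) with 4 of 7 windows down, PGM1, a phosphoglucomutase, had -1.13 (FDR 0.0287) with 1 of 12 windows down, and BEST3, a bestrophin chloride channel, had -1.07 (FDR 0.0382) with 5 of 13 windows down. Each of them held coding exon.

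Gains in DCIS were larger. AIG1, a hydrolase of fatty acid esters, had 4.48 (FDR 5.37e-12) at chr6:143332501-143334300 with 16 of 16 windows up. RP1, a microtubule protein of photoreceptors, had 4.45 (FDR 4.98e-12) at chr8:54629601-54630400 with 7 of 7. SPRED2, an inhibitor of RAS to MAP kinase signalling, had 4.43 (FDR 1.09e-11) at chr2:65315701-65316900 with 11 of 11. CDH13, a cadherin anchored without a transmembrane part, had 4.38 (FDR 3.32e-11) at chr16:82637801-82639500 with 13 of 13.

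The next gains in DCIS were at SLIT3, a secreted guidance ligand, with 3.92, NUDCD3, a cochaperone, with 3.82, NEK11, a kinase of the DNA damage response, with 3.75, and KCP, a secreted modulator of BMP signalling, with 3.74. Only 3 of the 8, AIG1, RP1 and NUDCD3, overlapped a region enriched over input in shANCO1, with log2 fold changes of 7.45, 5.47 and 4.71, and none overlapped one in shCTRL. In 10A the same places had smaller values, 1.06 at AIG1, 1.53 at RP1, 0.52 at SPRED2, 0.70 at CDH13, 0.78 at SLIT3, 1.14 at NUDCD3, 0.94 at NEK11 and 0.41 at KCP. The 10A values at SPRED2 (FDR 0.228) and KCP (FDR 0.660) did not pass.

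Losses in DCIS were led by FCGBP, a protein of mucus, with -3.81 (FDR 3.50e-12) and 6 of 6 windows down. SDC2, the heparan sulfate proteoglycan syndecan-2, had -3.80 (FDR 2.96e-08), IL17RD, an inhibitor of FGF signalling, had -3.48 (FDR 6.22e-06), ITGA9, an integrin subunit, had -2.94 (FDR 0.000121) and BLOC1S3, a factor for lysosome-related organelles, had -2.76 (FDR 1.40e-07). The first 4 overlapped a region enriched over input in shCTRL, with log2 fold changes of 3.90, 5.08, 3.96 and 4.46, and none of the 5 overlapped one in shANCO1. The IL17RD and BLOC1S3 regions held no GENCODE exon, and the BLOC1S3 region lay beyond the annotated end of that gene. The lowest value of all members, -6.99 in DCIS, was at the noncoding gene LOC101929528 with 3 of 3 windows down, which is named because it is the lowest and has too few windows for the rule that chose the others.

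Members could be compared with the regions enriched over input in each group. In 10A, 597 members (40.4%) overlapped such a region in shANCO1 and 269 (18.2%) in shCTRL, beside 45.2% and 23.5% of all regions. In DCIS the members' shares were 22.0% (242) in shANCO1 and 14.6% (160) in shCTRL, beside 30.3% and 27% of all regions. All regions include wide ones, and among all regions under 3000 bp 10A had 38.7% (shANCO1) and 16.7% (shCTRL), and DCIS had 24.1% and 20.9%. The members thus stood below the whole table in both lines, but within that width they stood above it in 10A and below it in DCIS, and these differences were not tested. Neither group had an enriched region at 871 members in 10A (59.0%) and 784 in DCIS (71.4%).

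The calls and this overlap are set side by side because both draw on the same libraries. Of the 626 gains in 10A, 149 overlapped an enriched region in both groups, 244 in shANCO1 alone, 0 in shCTRL alone and 233 in neither. Of the 391 gains in DCIS, 26 overlapped in both, 127 in shANCO1 alone, 1 in shCTRL alone and 237 in neither. The 71 losses in DCIS split into 2 in both, 0 in shANCO1 alone, 30 in shCTRL alone and 39 in neither. Neither group passed the test against input at 37.2% of the gains in 10A and 60.6% in DCIS, beside 75.1% and 79.9% of the members not called.

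Members were sorted by the kind of exon they held. The share up was 44.1% of 675 members with coding exon, 38.7% of 326 with 3′ untranslated but no coding exon, 43.9% of 264 with noncoding exon alone and 41.5% of 183 with no GENCODE exon, and the medians ran from 0.76 to 0.82. In DCIS the same classes had 36.1% of 474, 31.7% of 240, 40.8% of 218 and 29.9% of 147 up, with medians of 0.93, 0.71, 1.05 and 0.77. The remaining class, 5′ untranslated exon alone, was small, with 10 of 28 up in 10A and 11 of 19 in DCIS.

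The share of gains was also set against the amount of exon. In 10A the share up was 48.3% of 532 members with under 10% of bases in exons and 39.3% of 455 with 50% or more, and in DCIS it was 38.6% of 378 and 31.1% of 373. Their widths differed too, with a median of 1500 bp against 600 bp in 10A and 1500 bp against 500 bp in DCIS. The part of width in this was not tested. A transcript start of any kind lay inside 46 members in 10A, of which 20 were up, and inside 34 in DCIS, with 6 gains and 5 losses among them.

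Members whose exon labels named no gene that is protein-coding in GENCODE, such as long noncoding RNA genes and genes absent from GENCODE, numbered 277 in 10A and 232 in DCIS. Of these 117 (42.2%) were up in 10A, beside 42.5% of the remaining 1199, and 91 (39.2%) were up in DCIS, beside 34.6% of the remaining 866. Antisense genes share bases with a coding gene on the other strand, and ChIP-seq reads carry no transcript strand, so these labels cannot be told apart by the signal.

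Chromosomes were alike in sign. The median log2 fold change of the members was above 0 on each of the autosomes and on X in both lines, from 0.70 on chromosome 20 to 0.89 on chromosome 18 in 10A, and from 0.32 on chromosome 19 to 1.40 on X in DCIS. Chromosome 3 held 84 members in DCIS, of which 40 were up (47.6%), beside 33.1% of all DCIS regions there. Chromosome 9 had the lowest share up in 10A, 16 of 64, beside 42.8% of all its regions.

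The sites of the lines overlapped in part. A DCIS member overlapped 479 of the 10A members (32.5%), and a 10A member overlapped 487 of the DCIS members (44.4%). No DCIS region of any kind overlapped 774 of the 10A members (52.4%), and no 10A region overlapped 431 of the DCIS members (39.3%). Over all regions these shares were 41.8% in 10A and 30.5% in DCIS, and over intron-only regions under 3000 bp they were 60.2% and 42.8%. The lines share no library, so their values can be compared.

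Among the 479 pairs, made by joining each 10A member to the DCIS member it shared most bases with, 206 (43.0%) were up in 10A and 227 (47.4%) in DCIS. The call was up in both lines for 115 pairs, in 10A alone for 91, in DCIS alone for 111 that were not called in 10A, and in neither for 153 that were not called at all. The other 9 pairs were 8 that were down in DCIS alone and the opposite pair given below. The same DCIS member could enter several pairs, as the DCIS loss at SPTBN1 (-2.00) did. Up in both lines thus held for 24.0% of the member pairs, beside 16.3% of 29259 pairs of regions of any kind and 12.5% of 21658 such pairs under 3000 bp. The shares up in each line differed between these sets too. Pairs of any kind were up in 51.0% of cases in 10A and 29.2% in DCIS, and those under 3000 bp in 45.1% and 26.6%. What part of the 24.0% follows from the shares in each line was not tested. Of the member pairs up in 10A, 55.8% were also up in DCIS, and of those not called in 10A, 40.8% were. Over pairs of any kind the same shares were 32.05% and 26.3%. No pair was down in both. Over the pairs the log2 fold changes had a Spearman correlation of 0.21 and a Pearson correlation of 0.21 (n = 479), beside 0.10 for each over 29259 pairs of regions of any kind. These are correlations across regions, which are not replicates, and the points share the base composition of the same sites.

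**Figure D4:**
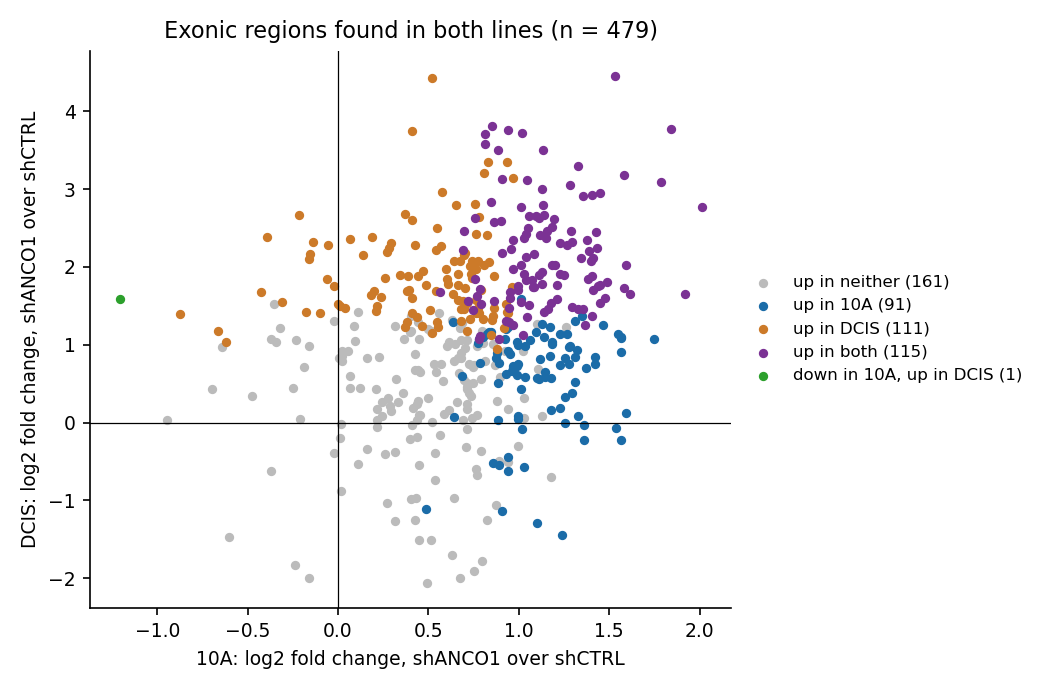
Each point is 1 of the 479 pairs of overlapping exonic members, by log2 fold change in 10A (x axis) and in DCIS (y axis), coloured by the calls at FDR under 0.05. The 115 pairs up in both lines (purple) fill the upper right, and the 1 pair down in 10A and up in DCIS (green) lies alone at the upper left.

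The pairs up in both lines with the largest smaller change were led by SRGAP3 with THUMPD3-AS1, at chr3:9349301-9350800 in 10A, with 2.01 (FDR 5.84e-06) in 10A and 2.77 (FDR 8.48e-07) in DCIS. TCHP, a protein of keratin filaments and centrosomes, had 1.92 (FDR 3.78e-06) and 1.65 (FDR 0.00120). UBOX5, a ubiquitin ligase, had 1.59 and 2.02, and the 3′ untranslated exon of VCL, which encodes the focal adhesion protein vinculin, had 1.58 and 1.72.

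The noncoding gene LINC01476 had 1.58 in 10A and 3.17 in DCIS, RP1 had 1.53 and 4.45, the kinase gene MINK1 had 1.49 and 1.81, and the divergent transcript MAPK6-DT had 1.48 and 1.60. The 10A region at MINK1 held no GENCODE exon. Of these 8 places, AP-1 matches lay in the bases shared by both lines at UBOX5, MINK1 and MAPK6-DT, and their sequences are those printed above. ACACB was the only pair called in opposite directions, with -1.21 in 10A and 1.59 (FDR 0.00263, 6 of 8 windows up) in DCIS.

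A single member was usual, in 1075 of the 1277 genes of 10A and 820 of the 959 genes of DCIS. At least 3 members occurred in 37 genes and 32 genes. In 10A the genes with most were MCF2L2, a guanine nucleotide exchange factor, SH3TC2, an endosomal protein of Schwann cells, and LOC105375752, a noncoding gene beside CCAT1 and CASC19 on chromosome 8, with 5 each. None of the 5 members passed at SH3TC2, where log2 fold changes ran from -0.27 to 0.88, or at LOC105375752, where they ran from -0.02 to 0.94. At MCF2L2, 2 of 5 were up, with values from -0.14 to 1.10. FKBP5, a cochaperone of steroid receptors, and ATP8A2, a phospholipid flippase, each had 1 of 4 up.

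At RP1, 3 of 3 members were up in 10A, from 1.30 to 1.84. In DCIS 3 of 3 members labelled RP1 were up too, from 2.07 to 4.45. The one with 2.07, at chr8:54870801-54873000, lay far beyond the end of the canonical GENCODE transcript of RP1. DCIS also had 3 of 3 up at PLB1, a phospholipase of the brush border, from 1.53 to 2.80, and 2 of 3 at SH3TC2, whose 2 gains of 2.18 and 2.79 lay wholly in 3′ untranslated exon. The places of those 2 SH3TC2 gains had -0.08 and 0.28 in 10A, and neither passed there.

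At ATP8A2, 2 of 5 members were up in DCIS, and at RPTOR and at XDH, the gene of xanthine dehydrogenase, 3 of 4 were. In 3 other genes, picked out after their values were seen, all 3 members passed. They were AMOTL1 in 10A, with gains from 0.85 to 1.35, MCF2L2 in DCIS, with gains from 1.24 to 2.31, and FAIM2 in DCIS, an inhibitor of cell death in neurons, with losses from -2.54 to -1.57.

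At the level of genes, 518 genes had a member in both lines. A gain in both lines occurred in 131 of them, in 10A alone in 120, in DCIS alone in 114 and in neither line in 153. The members of a gene in the 2 lines need not overlap in this count. A gene with several members had more chances of a gain, and 42.4% of members in 10A and 35.6% in DCIS were up. No such count over all genes is given here, so these numbers do not measure agreement between the lines.

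Several pathways that the study names were looked up by gene lists. Over all members 42.4% were up and 0.203% down in 10A, and 35.6% and 6.47% in DCIS. Over all regions 43.6% were up in 10A and 23.6% in DCIS. The counts of each list are to be read beside these shares, and no list was tested against them. YAP and TEAD drive growth genes downstream of the Hippo pathway, and 3 of 21 listed targets had a member in 10A, where 4 of 5 members were up, and 4 in DCIS, where 2 of 4 were up and 1 was down. AMOTL1, a regulator of YAP, had 1.35 (FDR 0.000932) at a site in 10A. Another AMOTL1 site was up in both lines, 1.15 (FDR 0.0147) in 10A and 2.46 (FDR 8.20e-05, a single window) in DCIS. This second site held no GENCODE exon and in DCIS lay before the annotated start of the gene. PTPN14, a phosphatase that restrains YAP, was up at the same site in both lines, 1.13 (FDR 0.00720) and 1.93 (FDR 0.00359, 4 windows). ANKRD1, a target of YAP, had the loss in DCIS, -1.70 (FDR 0.0180, 3 windows).

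Of 39 genes of matrix and adhesion, 10 had 16 members in 10A with 5 up (31.25%, beside 42.4% of all members). In DCIS 6 had 8 members with 4 up (50%, beside 35.6%). None was down in either line, where 0.203% and 6.47% of all members were. Besides VCL, LAMA3 (0.93, FDR 0.00389) and LAMB3 (1.38, FDR 0.00526), which encode laminin chains of the basement membrane, each had a gain in 10A. LAMA3 (1.18, FDR 0.0307) also had one in DCIS at another place.

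For epithelial to mesenchymal transition, 5 of 19 genes had 7 members in 10A with 4 up, and 4 had 5 members in DCIS with 2 up. The gains in 10A include a region labelled TWIST1 (0.98, FDR 0.000902) that held no GENCODE exon and lay outside that gene. LOXL2, a lysyl oxidase that crosslinks collagen, was up at 1 site in both lines, 1.40 (FDR 0.000943) and 2.07 (FDR 0.00150, 3 windows). CALD1, which encodes caldesmon, was up in both as well, 1.14 (FDR 0.0235) and 1.42 (FDR 0.00219), in regions without a GENCODE exon. SNAI1, a repressor of E-cadherin, had -1.13 in DCIS (FDR 0.0930, 2 windows), which did not pass.

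The list for PI3K, AKT and mTOR signalling had 5 of 27 genes with 6 members in 10A, 2 of them up, and in DCIS RPTOR alone, with 3 of 4 members up. RPTOR, the scaffold of the mTORC1 complex, was up at 1 shared site in both lines, 0.78 (FDR 0.000975) and 1.12 (FDR 0.0248). EIF4EBP1, a translation repressor that mTORC1 acts on, had 1.13 (FDR 0.00136) in 10A. MET, the receptor of hepatocyte growth factor, had 0.50 (FDR 0.306) there and did not pass.

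Other lists were nearly empty in exonic regions. Of 33 inflammatory and senescence secretome genes, 2 had a member in each line, with 1 of 2 members up in 10A, at the matrix protease MMP14 (1.15, FDR 0.0246), and 2 of 3 in DCIS. Of 32 keratinization genes, 0 had a member in 10A and only PPL in DCIS, which did not pass (-0.88, FDR 0.350). Of 13 AP-1 factors, 0 had one in 10A and FOSL2 had 2 in DCIS, with 0 called.

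Chromatin regulators and partners of ANCO1, 32 genes, had 3 members in 10A, 2 of them up, and 2 in DCIS, 1 of them up. SETD2, the methyltransferase of H3 lysine 36, had 1.37 (FDR 0.00201, 4 windows) in 10A. A member lay in ANKRD11, the gene of ANCO1, and was up in both lines, 1.32 (FDR 0.0115) in 10A and 1.46 (FDR 0.0131) in DCIS, on gene models without a GENCODE exon there. Zinc finger genes named ZNF with a number had 11 members in 10A, 5 up (45.5%, beside 42.4% of all members). They had 5 in DCIS, 3 up (60%, beside 35.6%), and none was down. ZNF774 had the largest value of these, 2.97 (FDR 5.86e-06) in DCIS.

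The labelled cell type was checked on regions enriched over input at promoters or exons. In shCTRL cells, 7 of 11 basal mammary markers were covered in 10A and 8 of 11 in DCIS, with KRT14 not covered in either. Luminal markers were covered for 4 of 10 and 5 of 10, mesenchymal ones for 3 of 10 and 0 of 10, and markers of blood and endothelial cells for 2 of 8 and 2 of 8, with PTPRC, CD3E and VWF not covered. For shANCO1 cells the 4 counts in the same order came to 9, 7, 5 and 2 (10A) and to 9, 6, 0 and 2 (DCIS). Coverage of a marker gene by H3K27ac is not its expression. Exonic members lay in genes such as EGFR and LAMB3 of the basal markers and in ESR1, TWIST1 and PECAM1 of the others in 10A, and in EHF and PECAM1 in DCIS.

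The AP-1 motif printed above was counted in a window of fixed length. In the central 500 bp, 26.4% of 10A members (95% Wilson interval 24.2% to 28.7%) and 22.7% of DCIS members (20.3% to 25.2%) held a match, beside 18.3% and 15.4% of all regions in a window of that length. The share in intron-only regions under 3000 bp was 21.7% and 20.0%, and in promoter-labelled ones 13.3% and 10.7%. Intron-only regions are narrower, and at like width their shares lay closer to those of the members. For 10A the members and the intron-only regions had 14.9% against 14.6% at 200 to 400 bp, 18.6% against 15.2% at 500 to 900 bp, 36.0% against 35.0% at 1000 to 1900 bp and 32.9% against 30.1% at 2000 to 2900 bp. For DCIS the values were 15.6% against 14.7%, 16.9% against 16.1% and 33.5% against 33.0%, and in the widest class the order was reversed, 23.1% against 25.8%. Base composition moved with the kind of region: the median GC content of the window was 43.2% in 10A members and 46.4% in DCIS members, beside 46.4% and 49.6% over all regions and 54.6% and 56.4% at promoter-labelled ones. Its part in the motif shares was not tested.

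The calls were then set beside the matches. In 10A the shares were 32.6% of 626 gains (29.0% to 36.4%) and 22.0% of 847 members not called (19.3% to 24.9%). In DCIS they were 32.2% of 391 gains (27.8% to 37.0%), 17.9% of 636 members not called (15.1% to 21.1%) and 12.7% of 71 losses (6.81% to 22.4%). This order was not particular to exonic members. Among intron-only regions under 3000 bp, 27.8% of 10A gains held a match, beside 18.9% of regions not called. DCIS intron-only gains reached 26.3%, with 17.9% for regions not called and 9.89% for losses. Taking all DCIS regions, the shares fell from 25.5% (gains) to 12.5% (not called) and 9.20% (losses). For all 10A regions, gains had 20.3% against 16.8% of those not called. Gains are wider, so the comparison was repeated among members of 1000 bp or more. There the shares in 10A were 37.0% of 441 gains and 32.4% of 343 members not called, with overlapping intervals. In DCIS they were 38.6% of 215 gains (32.4% to 45.3%) and 24.5% of 277 members not called (19.9% to 29.9%). These intervals cover counting error only, and neighbouring regions are not independent.

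**Figure D5:**
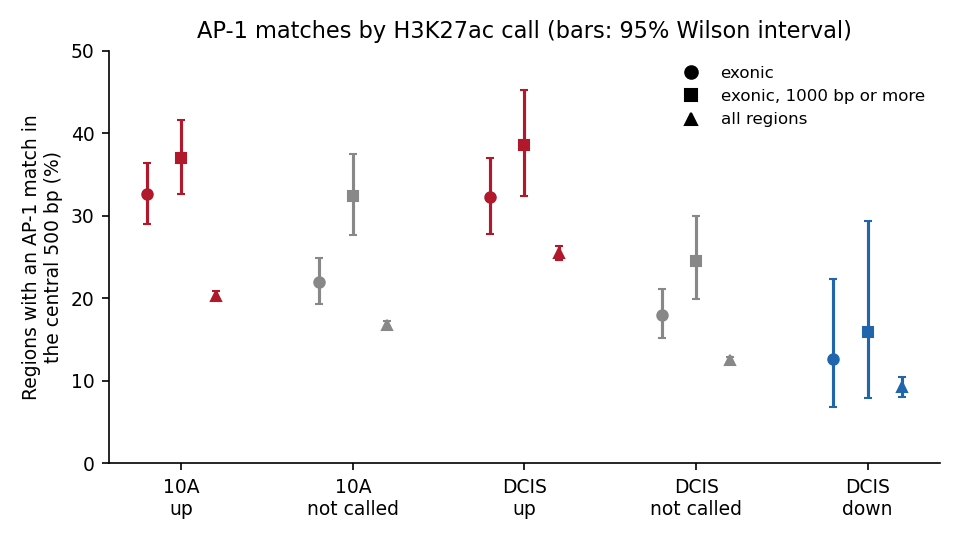
The points give the percent of regions with an AP-1 match in the central 500 bp (y axis) by call and line, for exonic members, exonic members of 1000 bp or more and all regions, with 95% Wilson intervals as bars. Gains of DCIS stand above regions not called in each of the 3 sets (32.2% against 17.9% for exonic members), and in 10A the gap narrows for wide members (37.0% against 32.4%).

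The matches lay mostly outside the exons. Inside 10A members there were 588 matches in 1257 kb of intron or other sequence (4.68 per 10 kb), 149 in 396 kb of exon that is not coding (3.76) and 34 in 101 kb of coding exon (3.35). In DCIS the densities were 3.93, 3.41 and 2.22 per 10 kb, the last from 15 matches in 67.5 kb. A TEAD motif, GGAATG or its reverse complement CATTCC, lay in the central 500 bp of 34.7% of 10A members and 29.4% of DCIS members, beside 27.9% and 27.1% of all regions. Its share in gains and in members not called was 35.0% against 34.4% in 10A and 28.9% against 29.4% in DCIS.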

How the data were processed

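H3K27ac and input reads had been mapped by the authors to GRCh38 (BWA, Rsubread), deduplicated (samtools) and compared in windows between groups of 3 libraries (csaw). Each deposited log2 fold change belongs to a representative window. The deposited p-value and FDR cover all regions of a table, and the deposited numbers of windows count tested windows, not reads. Normalization, window filter and merging were not given in the sources used here. The study's methods name ChIPpeakAnno for gene annotation, and the release of the gene models behind the promoter, exon and intron letters was not given in the sources used here. Columns of the authors' own comparisons were all the 6 tables held, so these were used as deposited.

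From the tables, members were taken by width and label, and counted with Python 3 scripts (pandas, numpy, scipy). Exons came from basic transcripts of GENCODE release 44, and sequence from GRCh38. Overlap meant at least 1 bp. Code was tested on simulated data. Members and lists were chosen with earlier results of these data known.

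Named genes carried the exon label, which did not always mean a GENCODE exon or a place inside the GENCODE gene. They were the 8 largest gains, and up to 5 losses, among members with FDR under 0.05 and at least 5 windows in each line, the 8 pairs with the largest smaller change, pairs of opposite direction, the 6 genes with most members, and up to 4 genes per list by FDR, the last 2 with no limit on windows. Some genes that this rule named are not reported here. Lists covered AP-1 factors, YAP and TEAD targets, secretome, keratinization, matrix, EMT, PI3K to mTOR, chromatin and zinc finger genes. Alternatives were other FDR, fold, window and width limits, GENCODE exons, stricter overlap and other motif windows.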

Additional observations from a re-analysis of the deposited data

How the results depend on the processing

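No paired analysis was possible because the tables hold 1 line per region for whole groups, and for the same reason leaving out a library could not be run. Directions were the same in each alternative, and 34 of the alternatives chosen at the outset stayed within 1.5 times a count, within 0.1 of a median or inside the 95% interval of a share. The other 25 chosen at the outset moved beyond those limits. Of those chosen after seeing the data, 5 moved and 1 did not. At FDR under 0.01 the gains in 10A numbered 330, the losses there 1, the losses in DCIS 35 and the pairs up in both lines 65, and at FDR under 0.1 the losses in 10A numbered 6. At least 1 log2 unit above the median of all regions left 22 gains in 10A. With a GENCODE exon and no protein-coding start within 1 kb in place of the authors' labels, which also admits regions they labelled as promoters, there were 2165 gains and 10 losses in 10A (44.6% and 0.206% of 4856) and 1166 and 194 in DCIS (28.7% and 4.78% of 4056), with a DCIS median of 0.686. With at least 5 windows that median was 1.06. With at least 50% of bases in GENCODE exons, an alternative chosen after seeing the data, gains and losses numbered 179 and 0 in 10A and 116 and 23 in DCIS, with a DCIS median of 0.748. Requiring an enriched region to cover 50% of a member gave 16.1% (shANCO1) and 1.63% (shCTRL) in 10A and 3.64% and 2.55% in DCIS. Counting only regions enriched at FDR under 1e-10 gave 29.8% and 7.52%, and 18.7% and 7.56%. A reciprocal overlap of 50% left 304 of the 479 shared members. AP-1 shares were 11.0% and 9.65% in 200 bp, and 46.1% and 36.8% in 1000 bp. The cause of these changes was not tested beyond what each setting removes or adds. Without values per library, neither depth nor replicate spread could set limits on a single region.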
